A study of Mus musculus with 8 samples.

Results

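The genes described here are 8 negative feedback targets of the Wnt pathway: Axin2, Nkd1, Notum, Rnf43, Znrf3, Apcdd1, Sp5 and Wif1. They were taken by symbol from the 16130 genes counted in RNA of mouse distal colon. Each symbol matched exactly 1 row, and all 8 were among the 14311 genes that passed a filter on low counts. The samples came from EE animals, kept in enriched housing (n = 4), and from NE animals, kept in conventional, non-enriched housing (n = 4), for 4 months in both cases. All 8 samples share one genotype, Tcf4Het/+ ApcMin/+. ApcMin is a truncating allele of Apc, and carriers develop adenomas of the gut. The labels do not say whether Tcf4 stands for Tcf7l2, whose product is often called TCF4, or for the gene with that symbol. No sample without these alleles was in the series, and the labels give neither age nor sex. Whether each library is from a separate animal is not stated either, so p-values measure only the spread between these samples.

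Wnt proteins bind Frizzled receptors, which stops the destruction complex built around Apc and Axin from degrading β-catenin. β-catenin then joins TCF/LEF factors on DNA and switches on target genes, and at the base of the colon crypt this keeps stem cells dividing. Part of the response is self-limiting: some targets encode proteins that remove Wnt receptors, trap or inactivate Wnt proteins, or rebuild the destruction complex. In cells that have lost Apc the pathway runs without ligand, and these feedback genes are known to be highly expressed in such adenomas.

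Libraries held between 4735764 and 6266902 counts in EE and between 6120185 and 10586851 in NE. EE 4 stood apart on the first principal component, at 46.3 against −10.4 to 6.36 in the other EE libraries and −14.2 to −7.56 in NE. The 7 colon position genes Cdx1, Cdx2, Hoxa13, Hoxb13, Hoxd11, Hoxd12 and Hoxd13 had counts in every library. Of the 6 tested, 5 had negative log2 fold changes (median −0.32) and 0 passed over all genes. The distal gene Hoxb13 was at 183 to 259 CPM (counts scaled to a common library size of 1e+06) in EE and 181 to 255 CPM in NE. Hoxd13, also distal, was at 19.96, 107, 30.5 and 35.7 CPM in EE 1 to EE 4 and 63.3, 64.4, 68.3 and 43.3 CPM in NE 1 to NE 4. EE 2 was highest for Hoxd13 as well as for Hoxd11, at 23.2 CPM against 3.82 to 9.35 CPM in the other EE libraries and 11.1 to 16.1 CPM in NE. Hoxd12 was at 9.76 CPM in EE 2 and 6.95 CPM in NE 1, and between 0.425 and 1.43 CPM in the other libraries. EE 2 and NE 1 are the libraries of each group with the lowest feedback sums, and the part of these position differences in the feedback values was not tested. All 10 epithelial markers were detected in every library. Apc itself was at 192 ± 65.7 CPM in EE and 169 ± 19.7 CPM in NE, and Tcf7l2 at 38.5 ± 11.8 and 33.4 ± 3.59 CPM (SD, n = 4 each). With one genotype throughout, these levels do not check the labels.

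The feedback genes had higher mean scaled levels in EE than in NE in every case. Their edgeR fold changes ran from 1.64 for Rnf43 to 2.16 for Sp5. None of the 8 passed edgeR's quasi-likelihood test over all genes, where each had a Benjamini-Hochberg adjusted p of 0.520. By that test 0% of 14311 genes were called. In all 8 genes the libraries EE 1, EE 3 and EE 4 lay above every NE library, while EE 2 did not. Levels below are CPM scaled for library size and composition, and fold changes are EE minus NE on the log2 scale with their standard errors (SE).

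**Figure D1:**
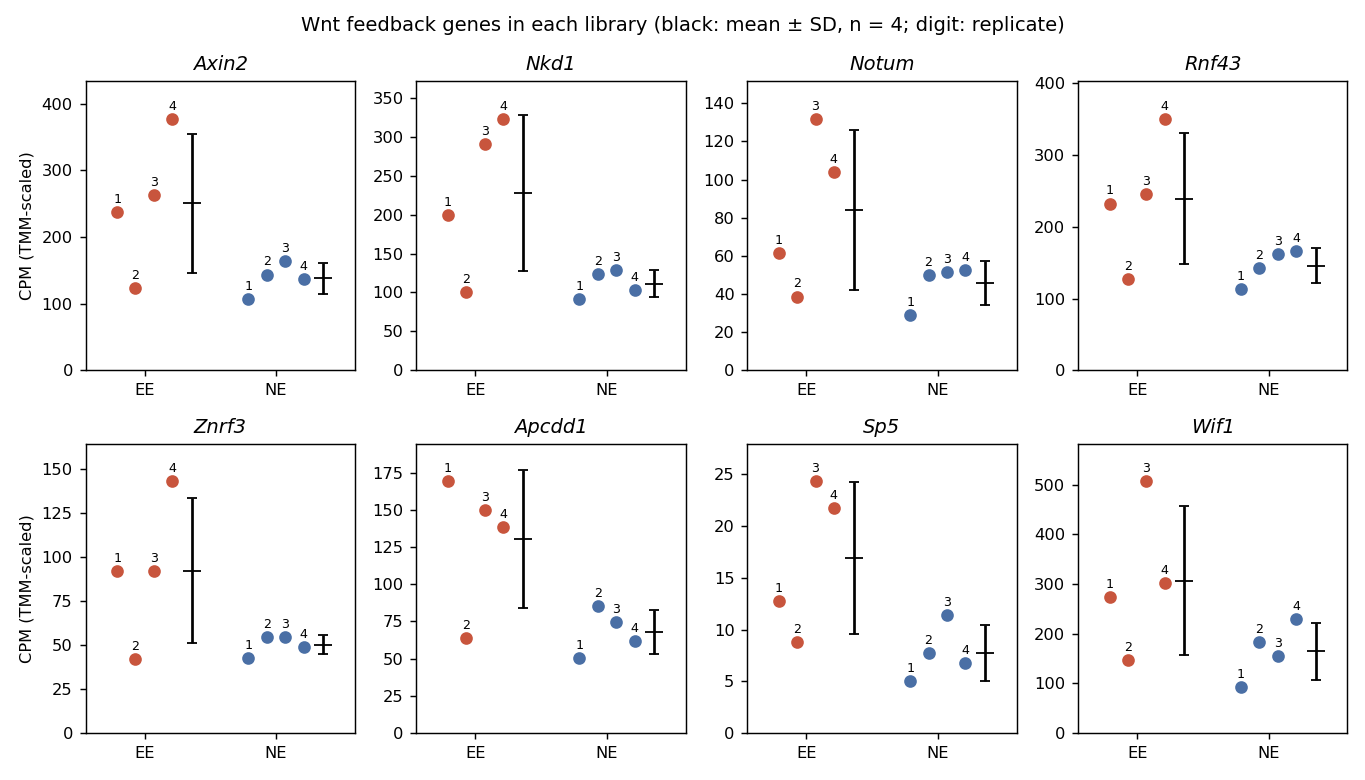
Each panel plots 1 feedback gene, with its level (CPM, linear axis from 0) in the 4 EE libraries (red, left) and the 4 NE libraries (blue, right); digits are replicate numbers and black bars are mean ± SD. EE 1, EE 3 and EE 4 lie above all NE points in each panel, and EE 2 lies with the NE points or, for Znrf3, just below them.

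Inside the cell, Axin2 rebuilds the destruction complex as a scaffold, and it is the most widely used reporter of pathway activity (Ensembl ENSMUSG00000000142, chromosome 11, 108920349 to 108950783 on GRCm38, the same build as mm10). Its level was 237, 123, 263 and 377 CPM in EE 1 to EE 4 and 107, 144, 163 and 137 CPM in NE 1 to NE 4. EE 2 ranked 7 of the 8 libraries from the top and the groups overlapped. The log2 fold change was 0.86 (SE 0.28). Nkd1, which binds Dishevelled and so blocks the signal below the receptor (chromosome 8, 88521354 to 88594884), was at 199, 100.1, 290 and 323 CPM in the EE libraries and 91.1, 123, 128 and 103 CPM in the NE libraries. Its highest EE value was 3.23 times its lowest, against 1.41 times among NE libraries. The log2 fold change was 1.03 (SE 0.31), and the groups overlapped through EE 2 alone.

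At the cell surface, Rnf43 and Znrf3 are related ubiquitin ligases that send Frizzled receptors for degradation. Rnf43 (chromosome 11, 87662722 to 87735539) was at 233, 127, 246 and 351 CPM in EE 1 to EE 4 and at 113, 143, 162 and 166 CPM in NE 1 to NE 4. Znrf3 (chromosome 11, 5276324 to 5444847, minus strand) was at 91.9, 41.9, 92.2 and 143 CPM in EE and at 42.8, 54.5, 54.6 and 48.9 CPM in NE. For both ligases EE 4 was the highest library. EE 2 was the lowest library of all for Znrf3 and below 3 of the 4 NE libraries for Rnf43. The log2 fold changes were 0.71 (SE 0.26) for Rnf43, the smallest among the feedback genes, and 0.88 (SE 0.29) for Znrf3. Without EE 4 they were 0.48 and 0.59.

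Apcdd1 is a membrane glycoprotein that binds Wnt and its coreceptor (chromosome 18, 62922231 to 62961179). It differed from the ligases in its order, with EE 1 highest: 169, 63.7, 150.2 and 139 CPM in EE 1 to EE 4. The NE libraries held 50.7, 85.1, 74.4 and 61.7 CPM, so EE 2 lay inside the NE range. The log2 fold change was 0.94 (SE 0.28), with the smallest unadjusted p of the 8 genes in edgeR, 0.00638, and an adjusted p of 0.520.

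Notum and Wif1 are secreted. Notum is a carboxylesterase that strips the lipid from Wnt proteins (chromosome 11, 120653788 to 120661175, minus strand). It was at 61.6, 38.7, 132 and 104 CPM in EE 1 to EE 4 and at 28.7, 50.2, 51.6 and 52.7 CPM in NE 1 to NE 4. Its highest library was EE 3, and NE 1 lay well below the other NE libraries. The log2 fold change was 0.88 (SE 0.34). Wif1, which binds Wnt proteins directly (chromosome 10, 121033960 to 121100650), was at 273, 146, 507 and 302 CPM in EE and at 91.9, 182, 156 and 229 CPM in NE. EE 3 again was highest, and without it the log2 fold change of 0.90 (SE 0.36) was 0.56. Notum without EE 3 had 0.59.

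Sp5 is a zinc finger factor that binds Wnt target genes and represses them (chromosome 2, 70474923 to 70477729). It was the least abundant of the genes, with 46 to 161 counts in the EE libraries and 32 to 122 in the NE libraries, so counting error weighs most on it. Its level was 12.7, 8.80, 24.3 and 21.7 CPM in EE 1 to EE 4 and 5.05, 7.74, 11.4 and 6.80 CPM in NE 1 to NE 4. Here EE 2 lay above 3 of the 4 NE libraries. The log2 fold change, 1.11 (SE 0.35), was the largest of the 8 and the 52nd highest among the genes tested.

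Promoters were available for 5 of the 8 genes, in RefSeq sequence on GRCm38.p6. The 250 bases before each RefSeq start were searched on both strands for the TCF/LEF core motifs CTTTGAT and CTTTGTT as well as CTTTGAA, none of which can overlap another on the same strand. Of the 5 genes Sp5 alone held a match, while 13.7% of 27025 genes with a promoter in the set held at least 1. Sp5 had CTTTGTT on the opposite strand at 222 to 216 bases before the start and CTTTGAT on the same strand at 104 to 98 bases. The Sp5 sequence (chr2:70474673-70474922, plus strand) is shown because it carries both matches, in capitals, and that of Axin2 (chr11:108920099-108920348, plus strand) as the best known feedback gene with none.
Sp5: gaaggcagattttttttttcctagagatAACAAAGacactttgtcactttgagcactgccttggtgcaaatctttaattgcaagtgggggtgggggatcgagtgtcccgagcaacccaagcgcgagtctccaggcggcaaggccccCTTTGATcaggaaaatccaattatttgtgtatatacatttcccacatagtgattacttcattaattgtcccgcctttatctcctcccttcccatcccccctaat
Axin2: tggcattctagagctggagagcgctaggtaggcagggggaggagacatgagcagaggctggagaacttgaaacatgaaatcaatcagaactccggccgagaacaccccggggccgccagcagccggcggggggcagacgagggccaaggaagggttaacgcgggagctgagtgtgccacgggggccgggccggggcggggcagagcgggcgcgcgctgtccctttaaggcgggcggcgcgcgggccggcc
RefSeq starts differ from the GENCODE gene spans given above for some genes: the Nkd1 window and both Rnf43 windows lie inside those spans, and the last 44 bases of the Wif1 window do. A match is a stretch of letters and not a site known to be used here, and the Nkd1, Rnf43 and Wif1 windows with no match say nothing about binding elsewhere. With 50 bases after the start included, Sp5 was still the 1 gene of the 5 with a match, against 15.7% of genes.

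Compared per kilobase of merged exon, Wif1 was the most abundant of the genes, at 126 ± 61.5 CPM per kb in EE and 67.9 ± 23.6 in NE (SD, n = 4 each). Nkd1, Axin2, Rnf43 and Notum followed in EE, at 50.1 ± 22.0, 45.5 ± 18.9, 36.5 ± 13.9 and 34.9 ± 17.4 CPM per kb. In NE the same 4 stood at 24.4 ± 3.83, 25.0 ± 4.25, 22.2 ± 3.70 and 19.0 ± 4.75 CPM per kb, so neighbours in this order lay within each other's spread. Znrf3, Apcdd1 and Sp5 formed the low end, at 11.7 ± 5.22, 10.1 ± 3.59 and 8.05 ± 3.49 CPM per kb in EE and 6.36 ± 0.711, 5.28 ± 1.16 and 3.69 ± 1.29 in NE. The first and the 3 last places were the same in both groups.

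Libraries varied more among EE than among NE in each of the 8 genes. The coefficient of variation was 35.4% to 49.8% in EE and 11.2% to 34.8% in NE, and Znrf3 had the widest contrast, at 44.7% and 11.2%. In total CPM the genes together reached 1278, 649.97, 1705 and 1760.3 in EE 1 to EE 4 and 529.7, 790.0, 801 and 806 in NE 1 to NE 4. The sum in EE 2 was therefore inside the NE range. NE 1 was the lowest library in 7 of the 8 genes. The share of all genes with a wider spread in EE was not counted. A wider spread in EE was not particular to the 8 genes. The SD of Apc was 65.7 CPM in EE and 19.7 CPM in NE. That of Tcf7l2 was 11.8 and 3.59 CPM and that of Myc 24.5 and 5.51 CPM. Some genes had the reverse, such as Cdx1 with 19.9 and 34.5 CPM.

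The genes followed each other from library to library. Over the 8 libraries the 28 pairs had Pearson correlations of log2 CPM of 0.77 to 0.99 with a median of 0.90, and without EE 4 of 0.80 to 0.98. Library composition is shared by every pair, so these are descriptions. Axin2 with Znrf3 was the closest pair and Znrf3 with Wif1 the loosest. The EE libraries with the highest values split the genes: Axin2, Nkd1, Rnf43 and Znrf3 were highest in EE 4, at 1.43, 1.11, 1.42 and 1.55 times their EE 3 level. Notum, Sp5 and Wif1 were highest in EE 3, and in EE 4 had 0.787, 0.893 and 0.596 times that level. As a share of the summed CPM of the 8 genes, Wif1 ranged from 17.1% to 29.7% in EE and from 17.3% to 28.5% in NE, and the ranges of all 8 shares overlapped between the groups.

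**Figure D2:**
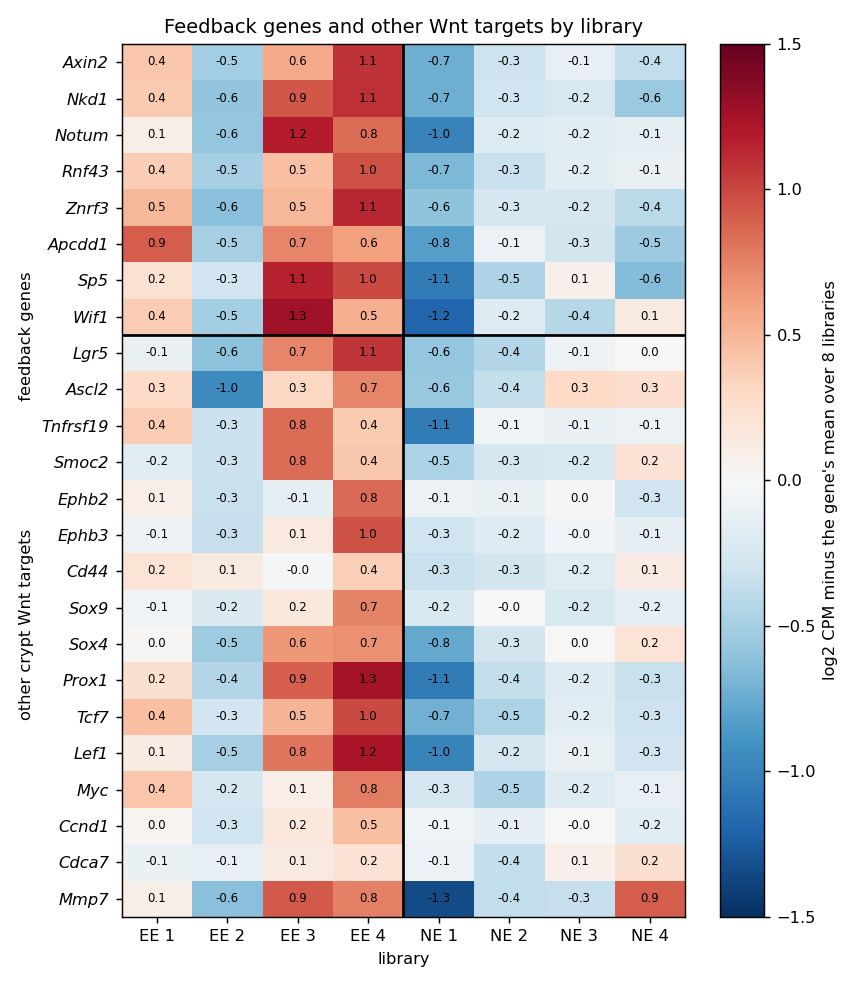
Rows are the 8 feedback genes and, below the line, 16 other crypt Wnt targets; columns are the EE libraries (left) and the NE libraries (right); colour and digits give the deviation of log2 CPM from its average for that gene. EE 3 and EE 4 are positive for all 8 feedback genes, EE 2 is negative for all 8, and NE 1 is the lowest column for 7 of them.

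Of the 8 feedback genes, 8 had an unadjusted p under 0.05 in edgeR with higher levels in EE, from 0.00638 for Apcdd1 to 0.0308 for Wif1, where 5.73% of all genes tested did. Their median log2 fold change was 0.89, and that of all tested genes 0.0021, with 50.3% of genes above 0. All EE libraries lay above all NE libraries in 0 of the 8 genes, against 2.87% of genes tested. The pattern with EE 1, EE 3 and EE 4 above every NE library, picked after the values were seen, held for 8 of the 8 and for 8.76% of genes tested. The 8 genes themselves were chosen with earlier results of these data known, so all these counts and the median are descriptions and not independent support.

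The authors' deposited table listed all 8 genes at an adjusted p (FDR) under 0.05, from 3.11e-05 for Nkd1 to 0.0123 for Rnf43. Such a value with the same sign was held by 1.07% of genes in the authors' deposited table. The authors' deposited table gave these genes log2 fold changes of −0.88 to −0.62. Its header names no direction, and for 97.8% of tested genes its sign was opposite to EE minus NE, which a ratio of NE to EE or exchanged column names would both give. EE and NE here mean the libraries labelled so. DESeq2 with its usual dispersion estimates called 0 of the 8 (lowest adjusted p = 0.146), and 0.0699% of genes were called with higher levels in EE. DESeq2 with each gene's dispersion set to the fitted trend, a setting tried after the data were seen, called all 8 (adjusted p of 2.91e-05 to 0.0139), beside 0.859% of genes with higher levels in EE. Without EE 4 that setting called 4, namely Nkd1, Notum, Apcdd1 and Wif1, beside 0.316%, and without EE 2 all 8, beside 2.14%. Whether these genes were called thus differed between the DESeq2 settings and, with trend dispersion, with the libraries kept. The cause was not tested.

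**Figure D3:**
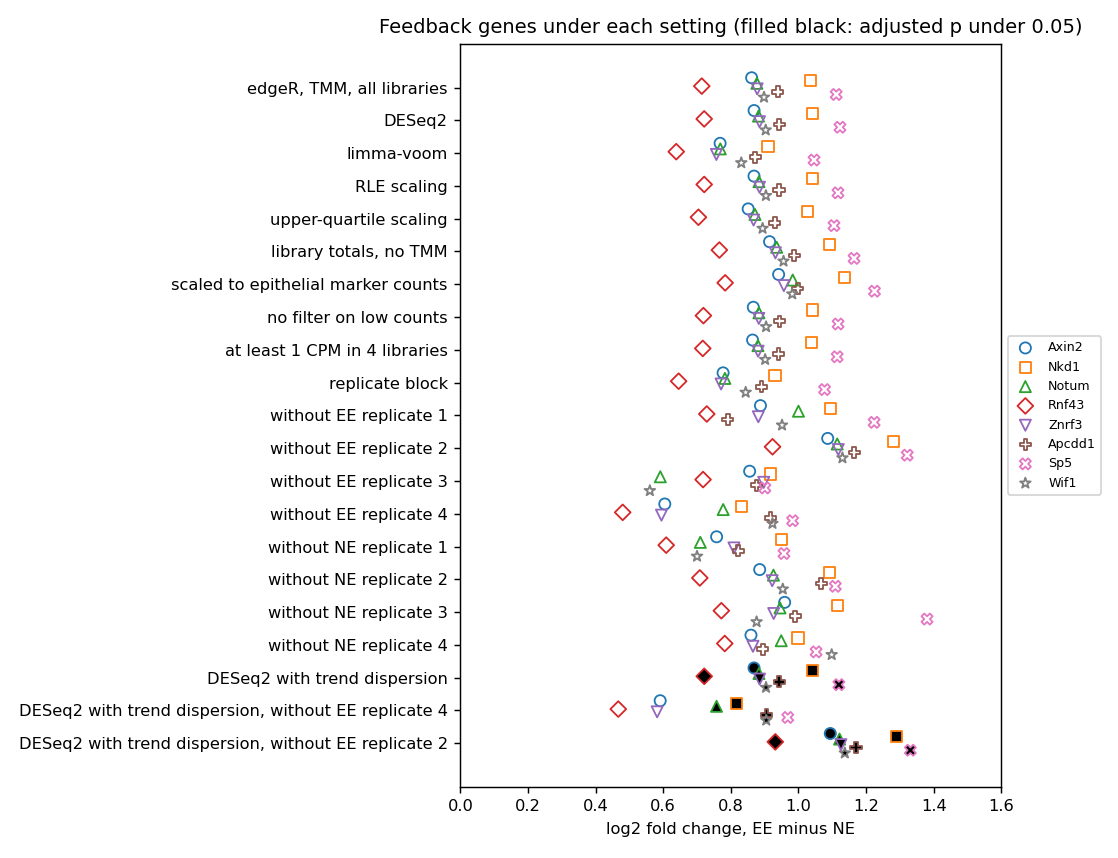
The log2 fold change (EE minus NE, x axis) of each feedback gene (marker shape) under the test used and each alternative (rows); black filling marks an adjusted p under 0.05. All markers lie between 0.47 and 1.38, and only the DESeq2 fits with trend dispersion have filled ones.

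Other β-catenin targets of the crypt also had higher mean levels in the EE libraries. All 16 genes listed were tested, 16 had positive log2 fold changes with a median of 0.44, and 0 passed over all genes. Higher in EE with an unadjusted p under 0.05 in edgeR were 6 of 16, against 5.73% of all genes tested. Tcf7, which encodes a TCF/LEF factor, averaged 39.1 ± 13.4 CPM in EE and 20.98 ± 3.47 CPM in NE. The homeobox gene Prox1 was at 230 ± 108 and 109 ± 25.8 CPM, and Myc at 82.1 ± 24.5 and 55.6 ± 5.51 CPM (SD, n = 4 each). The stem cell receptor Lgr5 had 47.4, 33.5, 85.5 and 108 CPM in EE 1 to EE 4. Its levels in NE 1 to NE 4 were 34.3, 37.8, 48.4 and 51.5 CPM. EE 1 thus lay within the NE range and EE 2 just below it.

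Wnt inhibitors outside the feedback set lay on both sides of 0. Of 24 listed, 17 were tested, 9 of them with positive and 8 with negative log2 fold changes (median 0.03), and 0 passed. Nkd2, the paralog of Nkd1, was at 5.68 ± 3.10 CPM in EE and 10.4 ± 2.12 CPM in NE, a log2 fold change of −0.89 (SE 0.38) opposite in sign to that of Nkd1. Dkk2, a secreted antagonist, was at 101 ± 24.3 and 68.3 ± 23.7 CPM, and Cxxc5, which binds Dishevelled, at 21.1 ± 1.44 and 16.9 ± 0.919 CPM. Cxxc5 was higher in each EE library than in any NE library, as were 2.87% of genes tested.

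Lists of other pathway components had median log2 fold changes from −0.17 to 0.25. Among 12 Frizzled and Lrp receptors, the substrates of Rnf43 and Znrf3 and their partners, 5 had positive log2 fold changes (median −0.03), with Fzd6 at 41.4 ± 4.84 CPM in EE and 29.95 ± 2.15 in NE. For R-spondins and Lgr receptors, which switch off the 2 ligases, 2 of 5 were positive (median −0.17), and Lgr4 was at 344 ± 38.5 and 386 ± 28.8 CPM. Of 8 tested Wnt ligands, on which Notum and Wif1 act, 5 were positive (median 0.25). They included Wnt10a, at 23.6 ± 13.6 CPM in EE and 11.3 ± 4.02 in NE, while Wnt2b, at 5.56 ± 1.58 and 9.28 ± 0.509 CPM, was lower in each EE library than in any NE library. So was Wnt4, at 1.93 ± 0.541 CPM in EE and 3.25 ± 0.410 CPM in NE. The share of all genes with that order was not counted. Fzd6 had the opposite order, each EE library above every NE library, as did 2.87% of genes tested. The destruction complex had 6 of 7 positive (median 0.07) and β-catenin with its nuclear partners 9 of 13 (median 0.25). Of those 13, 4 had an unadjusted p under 0.05 in edgeR with higher levels in EE, where 5.73% of genes tested did, and 1 with lower levels. Tcf7 and Lef1 among them, and Lgr5 among the Lgr receptors, were also counted with the other crypt targets. No gene of these lists passed over all genes.

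**Figure D4:**
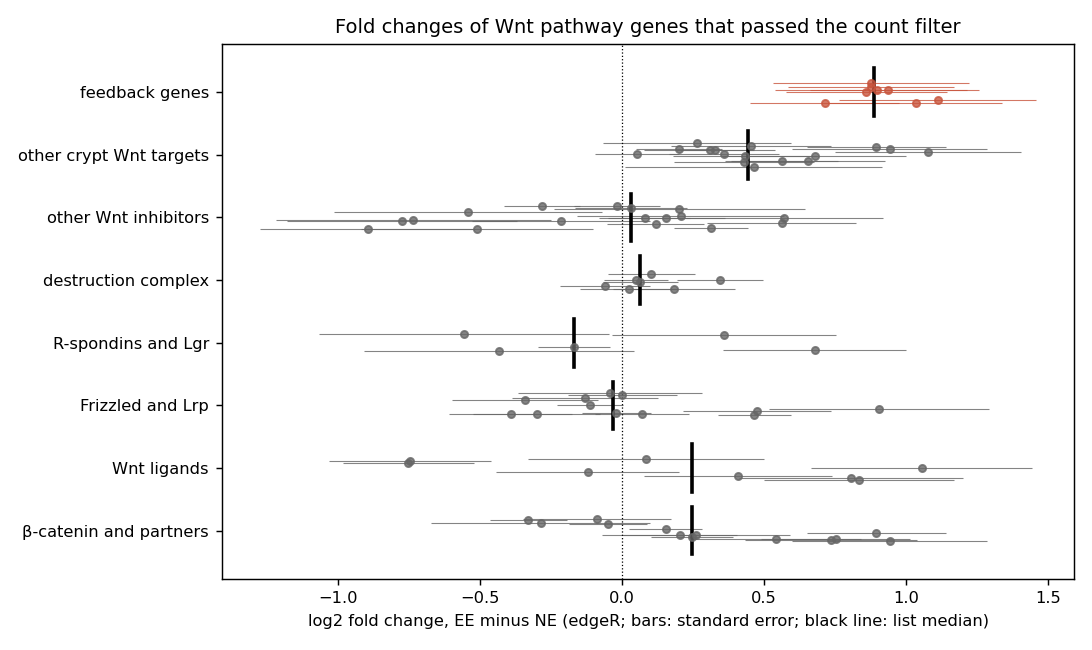
Points are genes that passed the count filter, placed by log2 fold change (EE minus NE, x axis; bars are standard errors) in 8 lists of the Wnt pathway (rows); black lines are list medians. The feedback genes (red) lie between 0.71 and 1.11 and the other lists spread to both sides of 0 except for the other crypt targets, which are all positive.

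Likeness was measured by the Pearson correlation over 8 libraries with the mean of the standardised feedback genes. The nearest of 12090 other genes were Tcf12 (r = 0.992), Patz1 (0.992), Plagl1 (0.987), Cdh13 (0.983), Prox1 (0.983), Exoc4 (0.982), Ptk7 (0.981) and Kdm5a (0.980). Prox1, as above, is one of the crypt targets. Among them Tcf12 was at 212 ± 41.8 CPM in EE and 161 ± 15.3 in NE, and Kdm5a at 172 ± 16.3 and 152 ± 5.94 CPM. Without EE 4 each of the 8 kept a correlation of at least 0.972.

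Other cell markers differed between the same libraries, and in bulk tissue fewer cells of a type cannot be told from less RNA per cell. Summed over 10 of 10 epithelial markers, levels were 8360.5 to 11918 CPM in EE and 9173 to 11938 CPM in NE. Per 1000 epithelial marker counts, the feedback genes had 107, 62.1, 204 and 186 counts in EE 1 to EE 4 and 44.4, 78.1, 76.5 and 87.8 in NE 1 to NE 4, the same order of groups as in CPM. Scaled in this way the median log2 fold change was 0.98, and 0 of the 8 genes passed. Cell division genes (11 of 11 tested, all positive) summed to 1107 to 1679 CPM in EE and 989 to 1052 CPM in NE. Of these 11, 8 were higher in EE with an unadjusted p under 0.05 in edgeR, against 5.73% of all genes tested. In 3 of the 11 all EE libraries lay above all NE libraries, against 2.87% of genes tested. None of the 11 passed over all genes. Markers of mature colonocytes (7 of 7) summed to 2123 to 6955 and 4746 to 9277 CPM, and those of goblet cells (7 of 7) to 10833 to 26723 and 22949 to 28827 CPM.

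EE 3 and EE 4, the libraries with the highest feedback sums, had the 2 lowest colonocyte sums, at 2123 and 2151 CPM, whereas EE 2 had 6955 CPM. EE 1, whose feedback sum of 1278 CPM was above that of every NE library, had a colonocyte sum of 5059 CPM, within the NE range. Smooth muscle markers (9 of 9) summed to 4165, 4396, 2320 and 672 CPM in EE 1 to EE 4 and to 3517 to 5678 CPM in NE. Fibroblast markers (8 of 8) summed to 492 CPM in EE 4, and to 1288 to 2096 CPM in the other EE libraries and 1577 to 1821 CPM in NE. Leukocyte markers (8 of 8) summed to 174 CPM in EE 4, to 621 to 1243 CPM in EE 1 to EE 3 and to 787 to 1633 CPM in NE. No marker of these lists was at 0 in any library. Without EE 4 the median log2 fold change of the feedback genes was 0.80. The part of these cell differences in the feedback values was not tested.

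**Figure D5:**
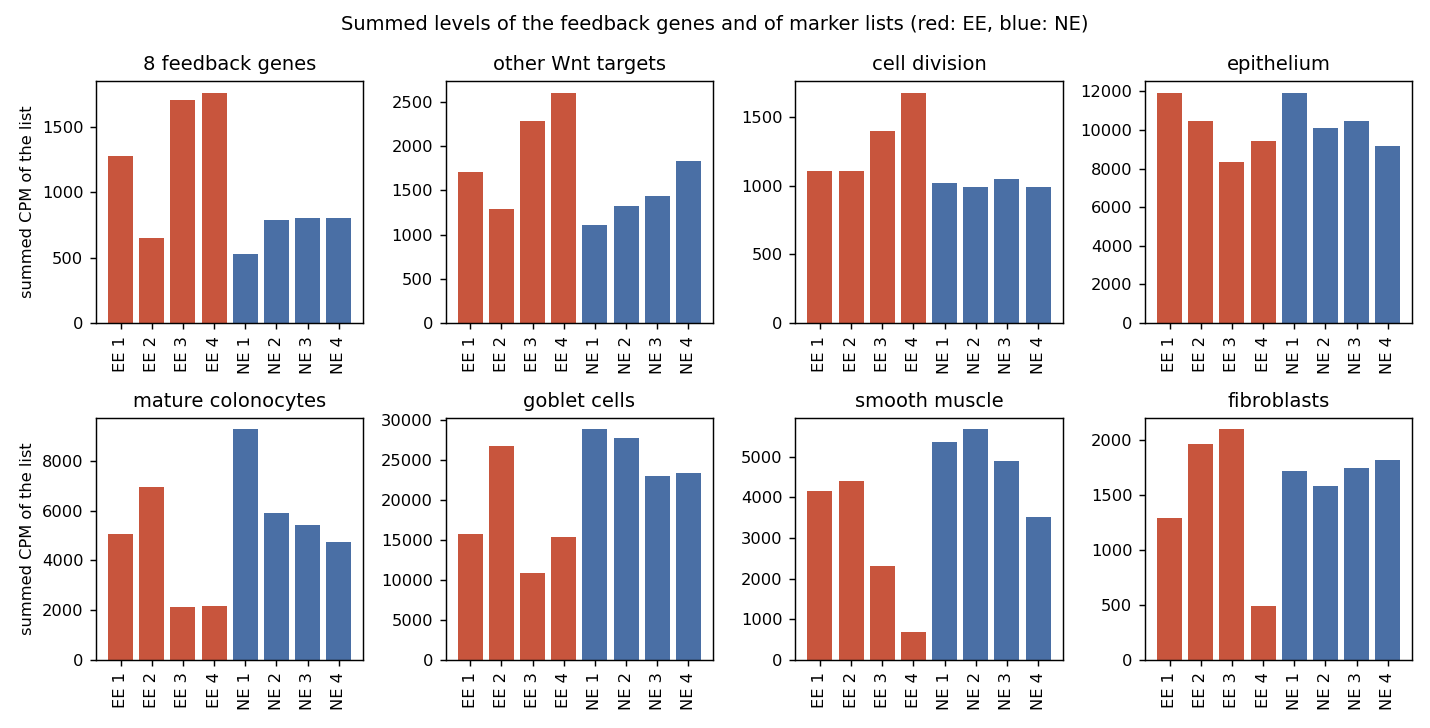
Bars give, for each library (EE red, left; NE blue, right), the summed CPM of the 8 feedback genes, the other crypt Wnt targets and 6 marker lists, on linear axes from 0. The feedback sum is highest in EE 3 and EE 4, where the mature colonocyte sum is lowest, and EE 4 has the lowest smooth muscle and fibroblast sums.

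Whether the counts used strand is not given in the sources used here, and 2 of the genes share exonic bases with antisense genes. Notumos shares 708 of the 2408 exonic bases of Notum and had 35 to 109 counts in EE and 19 to 68 in NE. Myadml2os shares 210 bases with Notum, with 2 to 19 and 1 to 4 counts. Gm11670 shares 209 of 5506 bases with Axin2 and had 4 to 31 and 2 to 13 counts. Notum itself had 202 to 873 counts in EE and 182 to 550 in NE, and in EE 2 the 40 counts of Notumos stood beside 202 of Notum.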

How the data were processed

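Total RNA of distal colon was made into stranded, ribosomal RNA-depleted libraries and sequenced in single reads of 50 bases, per the labels' protocols. Novoalign 2.08.01, DESeq 1.14.0 and mm10 are named in the submitters' processing notes. No source used here gives the counting program, the annotation or the strand setting. The authors deposited raw whole-number counts per gene and library, with a log2 fold change and an FDR (adjusted p-value) of their own comparison. No gene in the table had fewer than 12 counts in total.

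Counts were filtered with filterByExpr, scaled by TMM and tested with edgeR 4.0.16 (robust quasi-likelihood, Benjamini-Hochberg over all genes, threshold 0.05) in R 4.3.3. CPM are TMM-scaled, log2 CPM used a prior count of 2, and the SE is the fold change over the root of F. Exon lengths and coordinates are from GENCODE M21 (GRCm38). Alternatives were DESeq2 1.42.0, limma 3.58.1 (voom), other scalings and filters, a replicate block and each library left out. All tools were run on simulated data, where the checks covered the sign of called changes and the recovery of large ones. No requirement was set for changes of the size seen here. The 8 genes and all lists were chosen with earlier results of these data known. Named were all 8 genes, up to 3 genes per list by smallest p, Apc, Tcf7l2 and the 8 nearest genes by correlation among those with at least 5 CPM. The colon position genes fall partly outside this rule and were chosen after their values were seen, and 1 gene of that list is not reported here. No pair of libraries was alike within sampling noise (lowest chi-square over its degrees of freedom, 7.46).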

Additional observations from a re-analysis of the deposited data

Results flagged for a closer look

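Notum in NE 1, at 28.7 CPM, lay far below the other NE libraries, the nearest of which was at 50.2 CPM. Hoxd12, a colon position gene with too few counts to be tested, was at 9.76 CPM in EE 2, where the nearest EE library was at 1.27 CPM, and at 6.95 CPM in NE 1, where the nearest NE library was at 1.43 CPM. These gaps were large for a group of 4 by Dixon's criterion. They were 3 such cases among 44 groups examined (8 feedback genes, 7 position genes and 7 marker lists, in EE and in NE), and chance flags about 1 in 20.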

How the results depend on the processing

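The log2 fold changes of the 8 genes were positive under all 20 alternatives, between 0.47 and 1.38. Their median ran from 0.78 to 1.12 in edgeR when 1 library was left out, was 0.79 without EE 4 and 1.13 without EE 2 in DESeq2 with trend dispersion, and ran from 0.80 to 0.98 under the other settings with all libraries. Under 17 of these, all but the fits with trend dispersion, 0 of the 8 passed, with adjusted p from 0.0713 (without EE 2) to 0.843 (without NE 1). Over all genes edgeR called 0 and leaving out 1 library gave 0 to 1. DESeq2 called 14 genes. With trend dispersion, added after the data were seen, DESeq2 called 279 genes, 88 without EE 4 and 824 without EE 2, and 8, 4 and 8 of the feedback genes. The cause was not tested. The count of genes with an unadjusted p under 0.05 in edgeR, in either direction, was 1357, from 665 without NE 1 to 2745 without EE 2. Among the feedback genes 5 of 8 had such a p without NE 1, beside 421 of 14507 genes tested with higher levels in EE. Without EE 3 or EE 4 it was 6, beside 672 of 14476 and 574 of 14549 genes higher in EE. Without NE 3 or under limma-voom it was 7, beside 592 of 14502 and 736 of 14311. EE and NE share replicate numbers. Correlations of same-numbered libraries, taken on deviations from the group means, ran from −0.18 to 0.25. Only for replicate 1 was the same-numbered NE library the nearest to the EE library. With so few libraries this cannot exclude a shared batch or other pairing. The replicate block called 0 genes and 0 of the 8, with a median of 0.81. Depth limits Sp5 most.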
